A study of Mus musculus with 4 samples.

Results

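The peroxiredoxin and thioredoxin system was examined through 10 genes, Prdx1 to Prdx6, Txn1, Txn2, Txnrd1 and Srxn1, which were taken by gene symbol from the 22063 genes of the deposited table. All 10 were found, 1 row each, and all 10 passed the filter on low counts with 11448 genes in total. The libraries came from ID8, a mouse ovarian cancer cell line derived from ovarian surface epithelium. The shCtrl cells carried a control shRNA and are labelled WT, and the shUSP9X cells carried an shRNA against Usp9x, which encodes a deubiquitinase, and are labelled USP9X knockdown. Per the study's methods the shRNAs were delivered by lentivirus, and each group has 2 libraries of poly(A)-selected RNA. The labels do not say which shRNA sequence was used or whether the 2 libraries of a group came from separate cultures, so p-values measure the spread between these libraries, which may be technical. The summed estimated counts were 17232006 and 15611363 in shCtrl and 19978889 and 17021261 in shUSP9X.

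Peroxiredoxins reduce hydrogen peroxide and organic peroxides through a reactive cysteine. In most 2-Cys members the oxidised cysteine is returned to its reduced state by thioredoxin, while Prdx4, in the endoplasmic reticulum, is reduced mainly by protein disulfide isomerases. Thioredoxin is in turn reduced by thioredoxin reductase at the expense of NADPH. Prdx6 has a single catalytic cysteine and relies on glutathione, and sulfiredoxin (Srxn1) repairs overoxidised Prdx1 to Prdx4. Several of these genes are known targets of NRF2, the transcription factor encoded by Nfe2l2, which binds the antioxidant response element.

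The knocked-down gene was checked first. For Usp9x (chrX:13071498-13173328), 5169 and 4453 reads were counted in the shCtrl libraries, as against 390 and 346 under shUSP9X. Its log2 fold change was -3.85 (SE 0.06, adjusted p = 4.66e-26, edgeR quasi-likelihood test with Benjamini-Hochberg adjustment), in the direction of the labels. With an offset for GC content and transcript length it was -2.33, and with that offset taken from the transcript nearest the length implied by counts and FPKM it was -3.50. Of the 8 ovarian surface epithelium markers, 6 were tested, and their summed level was 2407 and 2435 CPM (counts scaled to a common library size) in shCtrl and 2768 and 2716 in shUSP9X, with Krt19 the most abundant. The 6 did not move together, since Krt8 (log2 fold change 0.92), Krt18 (0.64) and Krt19 (0.12) were higher and Wt1 (-0.52, adjusted p = 4.03e-12) and Msln (-0.47, adjusted p = 1.27e-11, edgeR) were lower. With the offset 2 were higher and 4 lower, and Krt19 turned to -0.17. The shares of all genes tested were 33.8% higher and 33.6% lower, and 36.0% and 27.4% with the offset. Krt19 also lost its call without shUSP9X replicate 1 (adjusted p = 0.172, edgeR). Krt7 (0, 0, 2 and 3 counts) and Lhx9 (7, 11, 8 and 3 counts) were at or near 0.

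Because the antioxidant response element is the best known element of these promoters, its core TGACNNNGC was searched on both strands from 250 bases before to 50 bases after each RefSeq start (GRCm38.p6). Of the 10 genes, all but Prdx6 had an entry (9 genes), with 11 start sites in all, and 3 of the 9 genes (3 of the 11 start sites) held a match: Prdx1, Txnrd1 and Srxn1. In the whole table, 14.0% of 27025 genes and 12.4% of 32851 start sites held one. The matched stretches are shown so that each can be set beside its gene's values, with the match in capitals. Every match read GCNNNGTCA on the gene's strand, which is the core on the other strand.
Prdx1: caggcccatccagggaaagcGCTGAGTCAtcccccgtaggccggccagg
Txnrd1: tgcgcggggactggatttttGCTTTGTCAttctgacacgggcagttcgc
Srxn1: gccacggcgggcagtgggcaGCTAGGTCA
The Prdx1 stretch (chr4:116685446-116685494, plus strand) lies outside any annotated gene, with the match 133 to 125 bases before the start, and contains TGAGTCA, a binding sequence of AP-1 that overlaps the core. The Txnrd1 stretch (chr10:82859094-82859142, plus strand) lies before the second of 3 start sites, inside an intron of a longer Txnrd1 transcript, with the match 92 to 84 bases before the start. The Srxn1 stretch (chr2:152105532-152105560, plus strand) lies in the first exon of 2 of 3 annotated transcripts, in 1 of them within the 5′ UTR, and runs past the end of the first exon of the third, with the match 29 to 37 bases after the start. Whether NRF2 or AP-1 binds any of them was not measured, and a missing match says only that these letters were not in the window.

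Of the 10 genes, 8 were higher in shUSP9X, 1 was lower and 1 passed in neither direction at an adjusted p under 0.05 (edgeR). Prdx6, Srxn1 and Prdx1 rose most, by 1.97-, 1.86- and 1.80-fold, followed by Txnrd1 and Txn2, at 1.48-fold each. Prdx3, Prdx5 and Txn1 rose by 1.33-, 1.3- and 1.07-fold, Prdx2 fell slightly, and Prdx4 did not pass the test. In this comparison 67.3% of all genes tested passed the threshold, 33.8% upward and 33.6% downward, so that passing the threshold was common. A rise above 1.5-fold, which 10.6% of all genes tested showed, was found for 3 of the 10 (Prdx1, Prdx6 and Srxn1). The median log2 fold change was 0.486 over the 10 genes and -0.000513 over all genes tested. Normalised values of the groups did not overlap for 9 of the 10 genes, against 82.3% of all genes tested. In bulk RNA, fewer cells with a transcript and less transcript per cell cannot be told apart.

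**Figure D1:**
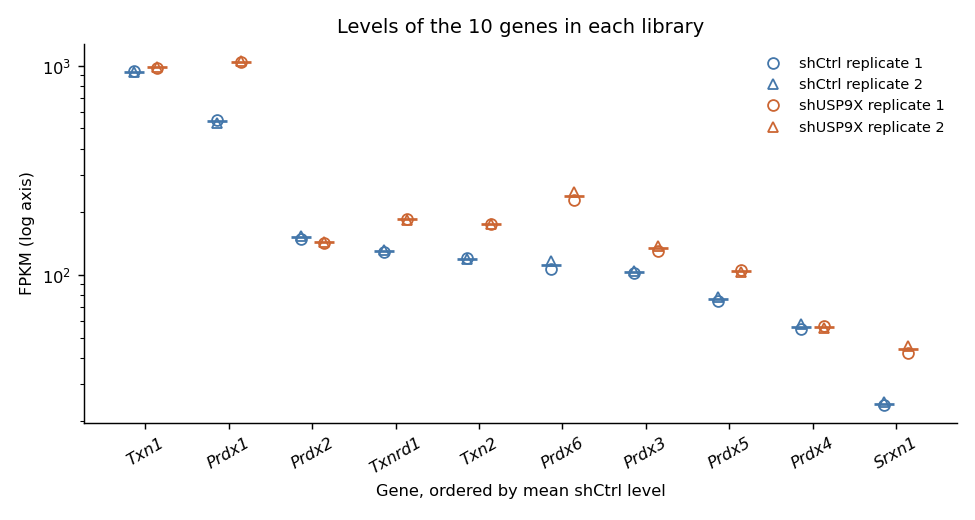
FPKM of the 10 genes in each of the 4 libraries on a log axis, ordered by their mean in shCtrl, with horizontal bars for group means (n = 2). Prdx1 stands at 540.8 in shCtrl and 1044 in shUSP9X, while the 4 values of Prdx4 lie together.

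Levels were compared between genes on the length-normalised FPKM scale, as deposited by the authors. In shCtrl cells Txn1, the cytosolic thioredoxin, was highest at 933.8 ± 5.39 FPKM (SD, n = 2), followed by Prdx1 at 540.8 ± 15.0. The other 8 genes lay between 150.6 FPKM (Prdx2) and 24.1 FPKM (Srxn1), in the order Prdx2, Txnrd1, Txn2, Prdx6, Prdx3, Prdx5, Prdx4 and Srxn1. In shUSP9X cells Prdx1 was highest at 1044 ± 7.52 FPKM and Txn1 came next at 978.8 ± 3.76. Prdx6 moved from the sixth to the third place, at 238.4 ± 13.8 FPKM, and Prdx2 from the third to the sixth, at 142.7 ± 1.55. No neighbours in either order overlapped between libraries. Among all genes of the table, Prdx1 rose from rank 110 to rank 57 and Txn1 went from rank 57 to rank 68. FPKM depends on the transcript length used. For Prdx1 the implied length was 1242 and 1232 nucleotides in shCtrl but 1137 and 1123 in shUSP9X, while for Txn1 it stayed at 1051. Whether Prdx1 would pass Txn1 at a fixed length was not tested.

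Among the cytosolic peroxiredoxins, Prdx1 and Prdx2 are close relatives with similar chemistry, and they moved apart. Prdx1 (ENSMUSG00000028691, chr4:116685544-116700822, plus strand) had 680.8 and 644.8 CPM in shCtrl and 1193 and 1190 CPM in shUSP9X. Both shUSP9X libraries lay far above both shCtrl libraries, and the log2 fold change was 0.85 (SE 0.03, 95% interval 0.78 to 0.91, adjusted p = 7.30e-18, edgeR). Prdx2 (ENSMUSG00000005161, chr8:84969587-84974834, plus strand) had 221.2 and 226.5 CPM in shCtrl and 204.1 and 208.7 CPM in shUSP9X. The shUSP9X values were the lower ones without overlap, but the difference was small, with a log2 fold change of -0.12 (SE 0.04, 95% interval -0.20 to -0.03, adjusted p = 0.0144, edgeR). This call was lost with DESeq2 (adjusted p = 0.104) and without either shUSP9X library (adjusted p = 0.213 without replicate 1 and 0.0935 without replicate 2, edgeR). With the GC content and length offset the fall was larger, at -0.31 (adjusted p = 1.38e-08, edgeR), and with the nearest transcript it was -0.28. As a within-library ratio of FPKM, Prdx1 over Prdx2 was 3.74 and 3.45 in shCtrl and 7.33 and 7.29 in shUSP9X. The implied lengths of both genes, which enter FPKM, were shorter in shUSP9X.

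Prdx6 (ENSMUSG00000026701, chr1:161240112-161251219, minus strand), the 1-Cys peroxiredoxin that also carries phospholipase activity, showed the largest fold change of the 10 without an offset. With the GC content and length offset, and with the nearest transcript, Prdx1 exceeded it. It had 161.5 and 170.8 CPM in shCtrl and 317.8 and 336.4 CPM in shUSP9X, and the groups did not overlap. Its log2 fold change was 0.98 (SE 0.04, 95% interval 0.89 to 1.07, adjusted p = 8.73e-17, edgeR). Its copy Prdx6b had 0 counts in all 4 libraries, and the pseudogenes Prdx2-rs3 and Prdx6-ps2 were not analysed here, so reads shared with them could not be separated. By Euclidean distance between centred log2 CPM values over the 4 libraries, the 3 of 7890 genes nearest to Prdx6 were Rrp12 (0.0253), Pnkd (0.0352) and Sf3b4 (0.0422). Their log2 fold changes were 0.957, 0.967 and 0.988. With 2 groups of 2 libraries this distance mainly picks genes of like fold change, and shared regulation was not tested.

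The mitochondrial members rose less than Prdx1 and Prdx6. Prdx3 (ENSMUSG00000024997, chr19:60864051-60874556, minus strand), the peroxiredoxin of the mitochondrial matrix, had 150.2 and 151.2 CPM in shCtrl and 194.3 and 205.5 CPM in shUSP9X. Its groups did not overlap, and its log2 fold change was 0.41 (SE 0.04, adjusted p = 9.69e-09, edgeR). Prdx5 (ENSMUSG00000024953, chr19:6906697-6910106, minus strand), an atypical 2-Cys enzyme of mitochondria, peroxisomes and cytosol, had 87.0 and 87.4 CPM in shCtrl and 113.1 and 113.7 CPM in shUSP9X. The libraries of each group nearly coincided, and the log2 fold change was 0.38 (SE 0.05, adjusted p = 2.76e-07, edgeR). With an offset for GC content and transcript length the Prdx5 difference shrank to 0.06 (adjusted p = 0.259, edgeR).

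Prdx4 (ENSMUSG00000025289, chrX:155323918-155340754, minus strand), the peroxiredoxin of the endoplasmic reticulum (ER), had 53.9 and 56.7 CPM in shCtrl and 56.8 and 55.9 CPM in shUSP9X. The groups overlapped, and the log2 fold change was 0.03 with a 95% interval from -0.11 to 0.16 (adjusted p = 0.718, edgeR). With the GC content and length offset it was -0.20 (adjusted p = 0.00803, edgeR), so its direction depended on the processing.

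**Figure D2:**
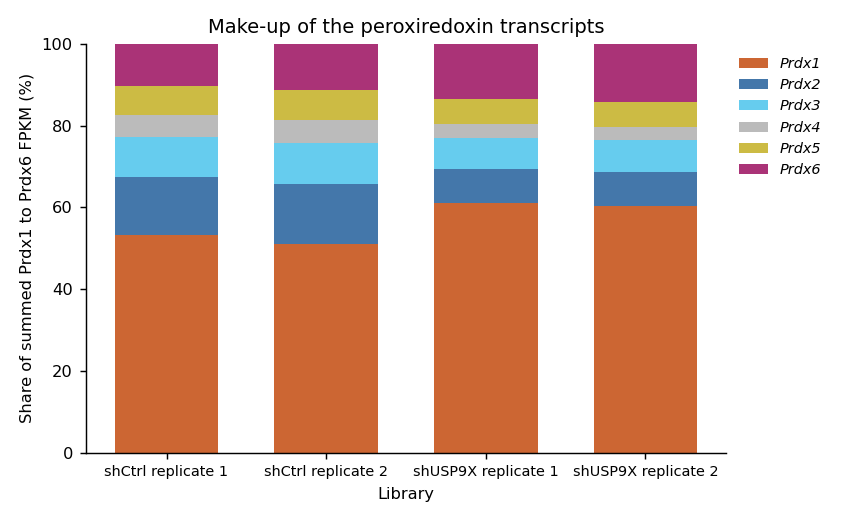
Share of the summed Prdx1 to Prdx6 FPKM taken by each peroxiredoxin (vertical axis, percent) in each of the 4 libraries. Prdx1 takes 53.2 and 51.0% in shCtrl and 61.1 and 60.4% in shUSP9X.

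The make-up of the peroxiredoxin transcripts therefore differed between groups, and their sum rose. Summed Prdx1 to Prdx6 FPKM was 1037 and 1040 in shCtrl and 1700 and 1737 in shUSP9X. In CPM the sum was 1354 and 1337 against 2079 and 2111, a smaller rise. The FPKM of all genes also summed higher in shUSP9X (497594 and 495792) than in shCtrl (467334 and 463374). The implied lengths of Prdx1, Prdx2, Prdx5 and Prdx6 were shorter in shUSP9X, which enters the sums and shares of FPKM. Prdx1 took 53.2 and 51.0% of this sum in shCtrl and 61.1 and 60.4% in shUSP9X, and Prdx6 took 10.3 and 11.2% against 13.5 and 14.3%. The share of Prdx2 was 14.2 and 14.8% in shCtrl and 8.33 and 8.28% in shUSP9X. The shares of Prdx3, Prdx4 and Prdx5 were also lower in both shUSP9X libraries, although the FPKM of Prdx3 and Prdx5 was higher there. Shares of a sum are tied to each other, and they are given as a description that was not tested.

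Of the 2 thioredoxins, the mitochondrial one moved more. Txn1 (ENSMUSG00000028367, chr4:57943373-57956411, minus strand), the cytosolic form, had 979.2 and 965.0 CPM in shCtrl and 1037 and 1042 CPM in shUSP9X. The groups did not overlap, but the log2 fold change was only 0.10 (SE 0.03, 95% interval 0.03 to 0.16, adjusted p = 0.00774, edgeR). The call was lost without either shUSP9X library (adjusted p = 0.101 without replicate 1 and 0.110 without replicate 2) and under the offset for GC content and length (0.03, adjusted p = 0.368, edgeR). Txn2 (ENSMUSG00000005354, chr15:77915047-77929006, minus strand), the mitochondrial form that reduces Prdx3, had 152.9 and 152.2 CPM in shCtrl and 224.9 and 226.5 CPM in shUSP9X. Its log2 fold change was 0.56 (SE 0.04, adjusted p = 6.48e-12, edgeR), with a wide gap between the groups. With the GC content and length offset the Txn2 difference was 0.33 (adjusted p = 1.10e-08, edgeR).

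The enzymes that regenerate the system both rose. Txnrd1 (ENSMUSG00000020250, chr10:82833951-82897712, plus strand), the cytosolic thioredoxin reductase and a selenoprotein, had 376.7 and 377.8 CPM in shCtrl and 558.5 and 559.8 CPM in shUSP9X. The spread within groups was far smaller than the gap between them, and the log2 fold change was 0.57 (SE 0.03, adjusted p = 8.93e-14, edgeR). Srxn1 (ENSMUSG00000032802, chr2:152105516-152111376, plus strand) had 66.3 and 68.1 CPM in shCtrl and 120.3 and 129.6 CPM in shUSP9X. Its log2 fold change was 0.89 (SE 0.05, adjusted p = 9.49e-14, edgeR). In FPKM, Txnrd1 stood at 13.7 and 14.1% of Txn1 in shCtrl and 19.0 and 18.7% in shUSP9X. Srxn1 stood at 2.77 and 2.90% of the summed FPKM of its substrates Prdx1 to Prdx4 in shCtrl and 3.10 and 3.29% in shUSP9X. Prdx1, the most abundant of these substrates, had risen as well.

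**Figure D3:**
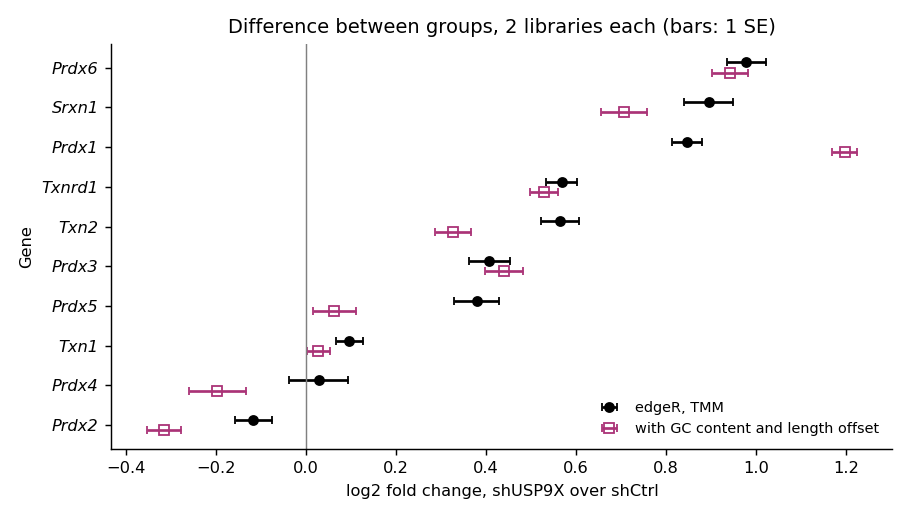
log2 fold change of shUSP9X over shCtrl (horizontal axis) for the 10 genes from edgeR with TMM scaling (black circles) and with an offset for GC content and length (open squares), with bars of 1 SE. Prdx6 stands at 0.98 and 0.94, and Prdx5 moves from 0.38 to 0.06.

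Fold changes in these libraries moved with the GC content of the transcript, so the 10 genes were also read against genes of like GC content. When the genes tested were put into 10 groups of equal size by GC content, group 1 (31.9 to 41.6% GC) had a median log2 fold change of -0.877 and group 8 (53.9 to 55.9% GC) one of 0.248. Prdx1, with 42.3% GC in its longest coding transcript, lay in group 2, where the median was -0.41 and 9.97% of genes were higher in shUSP9X. That transcript has 2294 nucleotides, while the counts and FPKM of Prdx1 imply 1242 and 1232 in shCtrl and 1137 and 1123 in shUSP9X. The placement thus rests on the choice of transcript, and the group of a shorter Prdx1 transcript was not determined. Prdx5, with 58.3% GC, lay in group 10, where the median was 0.18 and 44.5% were higher. With the GC content and length offset, 6 of the 10 genes were higher, 2 were lower (Prdx2 and Prdx4) and 2 passed in neither direction (Prdx5 and Txn1), against 63.4% of the 11430 genes in that fit past the threshold, 36.0% higher and 27.4% lower. The 6 that stayed higher were Prdx1 (1.20), Prdx6 (0.94), Srxn1 (0.71), Txnrd1 (0.53), Prdx3 (0.44) and Txn2 (0.33, all log2). The offset used the longest coding transcript of each gene. When the transcript nearest the length implied by the counts and FPKM was used instead, a choice made after seeing the data, Prdx1 was at 0.82 and Prdx6 at 0.72. The cause of the GC trend was not tested.

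**Figure D4:**
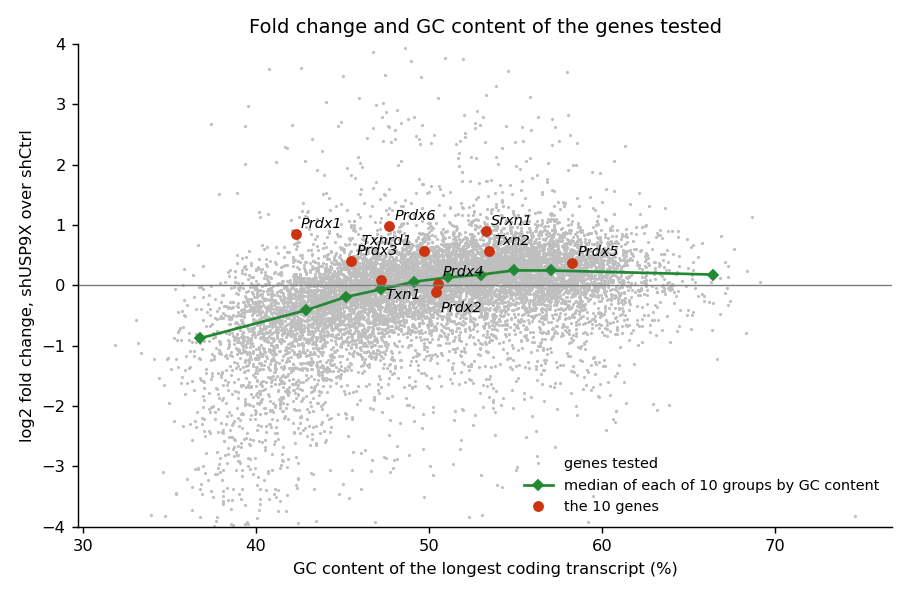
log2 fold change of shUSP9X over shCtrl (vertical axis) against the GC content of the longest coding transcript (horizontal axis, percent) for the genes tested (grey), the median of each of 10 groups by GC content (green) and the 10 genes (red); 90 genes beyond 4 on the vertical axis are not drawn. Prdx1 sits at 0.85, placed by its longest coding transcript in a group with a median of -0.41.

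Related antioxidant genes were described from 10 lists. Lists were counted once per gene, with the 10 genes left out, and 96 of 99 listed genes were tested. Of these, 45 were higher, 24 lower and 27 neither, with a median log2 fold change of 0.17 against -0.000513 over all genes tested, of which 33.8% were higher and 33.6% lower. With the GC content and length offset, 52 were higher, 23 lower and 21 neither, beside 36.0% higher and 27.4% lower of all genes. The selenoprotein list shares Gpx1 to Gpx4, Txnrd1 to Txnrd3, Msrb1 and Sephs2 with other lists or the 10 genes.

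Of 20 thioredoxin relatives tested, 7 were higher, 5 lower and 8 neither, with a median of 0.06, beside 33.8% higher and 33.6% lower of all genes tested. With the offset, 13 were higher, 2 lower and 5 neither, with a median of 0.191, beside 36.0% higher and 27.4% lower of all genes. The other reductases rose like Txnrd1: Txnrd3, the reductase of testis that also handles glutathione, was at 8.07 and 8.22 CPM in shCtrl and 13.1 and 13.2 CPM in shUSP9X (log2 fold change 0.69, adjusted p = 1.07e-04, edgeR). Txnrd2, the mitochondrial reductase, was at 8.30 and 9.61 CPM against 13.2 and 14.5 CPM (0.63, adjusted p = 3.19e-04, edgeR). The lower genes were Tmx3, Txndc16, Nxn, Erp44 and Txndc17, of which all but Tmx3 were named after their values were seen. Tmx3, an ER membrane oxidoreductase, was at -0.88 (adjusted p = 1.06e-12, edgeR) but at 0.44 with the GC content and length offset, where its direction turned. With the offset Erp44 was also higher (0.20, adjusted p = 0.00598), Txndc16 (adjusted p = 0.0682) and Txndc17 (adjusted p = 0.425, edgeR) lost their calls, and Nxn stayed lower. Nxn lost its call without shCtrl replicate 1 or either shUSP9X library, and Erp44 without shUSP9X replicate 1. Txndc16 lost it when any library but shCtrl replicate 2 was left out, and Txndc17 without shCtrl replicate 1 or shUSP9X replicate 2. None of these 4 passed with DESeq2 (adjusted p = 0.137 for Nxn, 0.0531 for Erp44, 0.139 for Txndc16 and 0.121 for Txndc17). Txnip, the thioredoxin-binding inhibitor, which was also named after its values were seen, was at 121.0 and 122.1 CPM in shCtrl and 133.4 and 149.7 CPM in shUSP9X (0.22, adjusted p = 7.24e-04, edgeR). Without shUSP9X replicate 2 the Txnip call was lost (0.14, adjusted p = 0.0818, edgeR).

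Glutathione-linked enzymes, the parallel system that serves Prdx6, and the list of superoxide dismutases and catalase were mostly higher. Of 7 glutathione-linked genes tested, 5 were higher and none lower, with a median of 0.655, and with the offset 6 were higher. Among all genes tested, 33.8% were higher and 33.6% lower, and with the offset 36.0% and 27.4%. Gsr, glutathione reductase, had 148.0 and 150.2 CPM in shCtrl and 287.1 and 277.1 CPM in shUSP9X (log2 fold change 0.92, adjusted p = 1.90e-16, edgeR). Glrx5 (0.91) and Glrx (0.66), both glutaredoxins, and Gpx1 (0.74, and 0.41 with the offset), a glutathione peroxidase, also rose. Gpx4, named after its value was seen, was the other gene that rose. Of the 5 superoxide dismutase and catalase genes, 4 were higher, namely Sod3 (1.43), Sod2 (0.69), Cat (0.67) and Sod1, the last named after its value was seen, and Ccs, the copper chaperone of Sod1, named likewise, was at 0.15 and did not pass (adjusted p = 0.284, edgeR), but did without shCtrl replicate 1 (0.34, adjusted p = 0.0369, edgeR). The 4 of 5 stand beside 33.8% higher of all genes tested. With the offset 3 of the 5 were higher, beside 36.0% of all genes. Sod1 lost its call there (-0.03, adjusted p = 0.519, edgeR), and Sod2 rose more (1.40). Sod3, the extracellular superoxide dismutase, had 55.6 and 58.8 CPM in shCtrl and 153.2 and 154.1 CPM in shUSP9X.

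Repair enzymes and genes of ER oxidative folding changed in both directions. Of 7 methionine sulfoxide reductases and sestrins, 4 were lower (Msrb3, Sesn3, Sesn1 and Sesn2) and 2 higher (Msrb1 and Msrb2). Among all genes tested, 33.6% were lower and 33.8% higher. Sesn1, Sesn2, Msrb1 and Msrb2 were named after their values were seen. Msrb3, an ER methionine sulfoxide reductase, was at -0.90 and Sesn3, a sestrin, at -0.92, while the offset brought Sesn3 to 0.06 (adjusted p = 0.720, edgeR). With the offset no gene of this list was higher and 3 were lower, beside 36.0% higher and 27.4% lower of all genes. Msrb1 (adjusted p = 0.529) and Msrb2 (adjusted p = 0.164, edgeR) lost their calls there. Leaving out shCtrl replicate 1 or shUSP9X replicate 1 ended the call of Msrb1, and leaving out replicate 2 of either group ended those of Msrb2 and Sesn2. With DESeq2 none of Msrb1, Msrb2 and Sesn2 passed (adjusted p = 0.112, 0.13 and 0.0894). Of 11 genes of ER oxidative folding, 4 were lower, 1 higher and 6 neither, against 33.6% lower of all genes tested, and with the offset 7 were lower and 2 higher. Ero1a, the ER thiol oxidase that produces hydrogen peroxide, had 209.5 and 211.9 CPM in shCtrl and 108.4 and 114.0 CPM in shUSP9X (log2 fold change -0.92, adjusted p = 1.21e-15, edgeR). Its relative Ero1b was at -0.82. The offset reduced Ero1a to -0.30 and Ero1b to -0.44, and both stayed lower in all 16 alternatives. The other genes past the threshold, named after their values were seen, were Vkorc1 and Pdia3 (lower) and Pdia5 (higher). Pdia3 and Pdia5 lost their calls with the offset (adjusted p = 0.112 and 0.623, edgeR). Leaving out replicate 2 of either group ended the call of Vkorc1, replicate 1 of either group that of Pdia5, and any library but shCtrl replicate 2 that of Pdia3. With DESeq2 none of Vkorc1, Pdia5 and Pdia3 passed (adjusted p = 0.2, 0.176 and 0.0881).

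Among the thioredoxin clients, 3 of 5 were higher, 1 was lower and 1 was neither, beside 33.8% higher and 33.6% lower of all genes tested. Apex1, a redox-sensitive repair endonuclease, was at 0.71 and Rrm2b, the p53-inducible ribonucleotide reductase subunit, at -1.11. The offset for GC content and length brought Rrm2b to -0.25 (adjusted p = 0.0429), and with the transcript nearest the implied length its call was lost (-0.15, adjusted p = 0.234, edgeR). Rrm1 and Rrm2, named after their values were seen, were the others that rose. For the selenium pathway that supplies Txnrd1, 1 of 7 incorporation factors was higher (Eefsec, the selenocysteine elongation factor, 0.59) and 2 were lower (Secisbp2l, -0.86, and Sephs2, the latter named after its value was seen), beside 33.8% and 33.6% of all genes tested. With the offset 2 were higher and 2 lower, with Eefsec at 0.36 and Secisbp2l at -0.43. Of 18 selenoproteins tested, 10 were higher and 5 lower, with a median of 0.146, and with the offset 8 were higher and 6 lower, beside 36.0% and 27.4% of all genes. Selenow, a small thioredoxin-fold protein, had 26.7 and 27.3 CPM in shCtrl and 56.5 and 59.1 CPM in shUSP9X (1.10, adjusted p = 1.15e-12, edgeR). Selenop, the secreted selenium carrier, had 68.9 and 65.3 CPM in shCtrl and 32.1 and 34.4 CPM in shUSP9X (-1.01, adjusted p = 1.41e-12, edgeR).

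**Figure D5:**
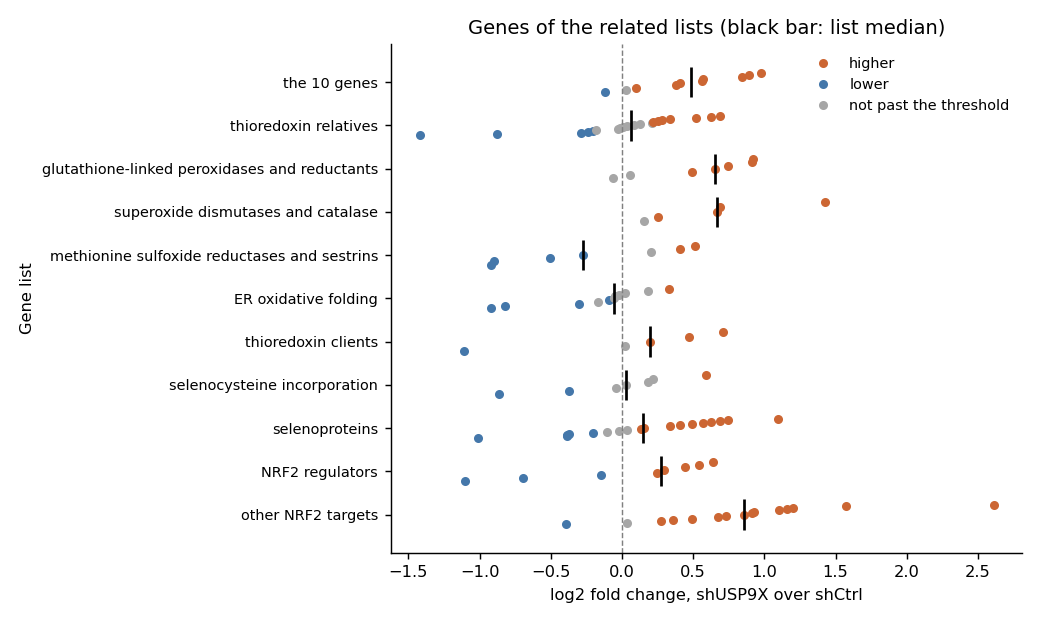
log2 fold change of shUSP9X over shCtrl (horizontal axis) for each tested gene of the 10 genes and the related lists (vertical axis), coloured by edgeR call, with a black bar at each list's median and a dashed line at the median of all genes tested. The list of other NRF2 targets has a median of 0.857, and the methionine sulfoxide reductases and sestrins one of -0.272.

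Known NRF2 targets outside the 10 genes were mostly higher, and they were the list with the highest median among the 10. Of 15 tested, 13 were higher, with a median of 0.857, beside 33.8% higher of all genes tested. With the offset all 15 were higher, with a median of 0.771, beside 36.0% of all genes. Nqo1, the quinone oxidoreductase, had 25.6 and 26.7 CPM in shCtrl and 163.0 and 156.3 CPM in shUSP9X (log2 fold change 2.61, adjusted p = 9.51e-23, edgeR). Blvrb (1.58), biliverdin reductase B, Fth1 (1.20), the ferritin heavy chain, and Pgd (1.16), an NADPH-producing enzyme of the pentose phosphate pathway, followed. Slc7a11, the cystine transporter, named after its values were seen, was lower at -0.40 (adjusted p = 2.07e-04, edgeR) but at 0.90 with the GC content and length offset. Me1, an NADPH-producing malic enzyme, also named after its values were seen, was at 0.04 (adjusted p = 0.306, edgeR). Me1 passed the threshold under the offset (0.24, adjusted p = 1.45e-08) and without shCtrl replicate 2 (0.07, adjusted p = 0.0266, edgeR). The list was drawn up with these data's earlier results known.

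The regulators of NRF2 changed in both directions, with 5 of 8 higher and 3 lower, with the offset as well. Among all genes tested, 33.8% were higher and 33.6% lower, and with the offset 36.0% and 27.4%, so both directions were common. Nfe2l2 itself, named after its values were seen, had 356.1 and 360.2 CPM in shCtrl and 437.2 and 439.9 CPM in shUSP9X (log2 fold change 0.29, adjusted p = 6.07e-08, edgeR). Keap1, the adaptor that presents NRF2 for degradation, was at 0.64. Cul3, the scaffold of the same ubiquitin ligase, was at 233.0 and 223.2 CPM in shCtrl and 105.1 and 107.8 CPM in shUSP9X (-1.10, adjusted p = 2.51e-17, edgeR). The offset reduced this to -0.13 (adjusted p = 0.00641), and with the nearest transcript it was -0.42 (adjusted p = 3.69e-10, edgeR). Bach1, a repressor that competes with NRF2, was at -0.70, and at -0.40 with the offset. Mafg, named after its value was seen, was the other lower gene (-0.15, adjusted p = 0.0390, edgeR). It kept its call in 10 of 16 alternatives and lost it with DESeq2 (adjusted p = 0.236), upper quartile scaling and limma on either FPKM scale, and without shCtrl replicate 2 (adjusted p = 0.444) and without shUSP9X replicate 1 (adjusted p = 0.395, edgeR). These are transcript levels, and NRF2 protein was not measured here.

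Markers of other cell types were measured beside these genes. The summed level of 7 leukocyte markers was 4.27 and 4.36 CPM in shCtrl and 12.1 and 11.6 CPM in shUSP9X, with Cd68 the most abundant and Cd3e at 0 counts in all libraries. Of these, 4 were tested. Ptprc (0, 0, 29 and 18 counts), Csf1r (0, 0, 17 and 13) and Itgam (0, 0, 72 and 75) had none in shCtrl. They passed the filter through shUSP9X alone, so their calls as higher are not read as a test. Cd68 was counted in both groups and did not pass (adjusted p = 0.125, edgeR). The 10 genes summed to 2930 and 2900 CPM in shCtrl and 4020 and 4069 CPM in shUSP9X. Of 7 erythroid markers, in whose cells Prdx2 is abundant, none was tested, and their sum stayed at or under 0.653 CPM in every library. Fibroblast markers summed to 251.8 and 258.9 CPM in shCtrl and 147.7 and 145.1 CPM in shUSP9X, with Dcn the most abundant and Lum and Pdgfrb at 0. Of the 6, 3 were tested and all 3 were lower (Col1a1, Dcn and Pdgfra), beside 33.6% of all genes tested. Endothelial markers summed to 10.4 and 11.6 CPM in shCtrl and 6.48 and 7.004 CPM in shUSP9X, with Tek the most abundant and lower, and Cdh5 and Kdr at 0. The part of the leukocyte, fibroblast and endothelial markers in the changes of the 10 genes was not tested.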

How the data were processed

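RNA of ID8 cells (2 shCtrl and 2 shUSP9X libraries) was oligo(dT)-selected and sequenced by the authors, and their methods name GRCm38. The submitters' processing notes list fastp 0.18.0, Bowtie2 2.2.8, HISAT2, StringTie 1.3.1 and RSEM, with no order. For each gene and library the authors deposited estimated counts and FPKM values. Between 6.395 and 6.69% of the estimated counts were not whole, and all were rounded. Genes were filtered with filterByExpr and tested with edgeR 4.0.16 (TMM, quasi-likelihood, two-sided, R 4.3.3), with Benjamini-Hochberg adjustment over 11448 genes. CPM values are TMM-normalised. The common biological coefficient of variation was 0.0352. Between replicates, chi-square per gene was 3.41 in shCtrl and 2.23 in shUSP9X, above the 1 that counting error alone would give. The tests were tried on simulated data. There, a straight-line trend on GC content and length was built in. In the real libraries the GC medians levelled off instead, at 0.248, 0.247 and 0.179 in groups 8, 9 and 10. On the simulated data the test without an offset called 7615 of 11100 unchanged genes, and the test with the offset 9. The offset used the same properties as the built-in trend, so this outcome followed from how the data were made. It does not give the cause of the trend in the real libraries.

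The alternatives were DESeq2 1.42.0, other scalings and filters, limma 3.58.1 on log2(FPKM + 1) and log2(FPKM + 0.1), a replicate block, a loess offset (span 0.3) on GC content and length from GENCODE M21, and each library left out. The genes and lists were chosen with earlier results of these data known. Named from each list were at most 4 genes with an adjusted p under 0.05, an absolute log2 fold change of at least 0.58 and a mean log2 CPM of at least 2, else the largest rise and fall; others are marked. Protein sequences were not analysed here.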

Additional observations from a re-analysis of the deposited data

How the results depend on the processing

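Prdx1, Prdx3, Prdx6, Txn2, Txnrd1 and Srxn1 stayed higher in all 16 alternatives, with log2 fold changes of 0.812 to 1.2, 0.375 to 0.479, 0.721 to 1.1, 0.285 to 0.597, 0.505 to 0.601 and 0.706 to 0.952. The number of the 10 genes that were lower was 0 with DESeq2, upper quartile scaling and limma on either FPKM scale, 0 to 1 with a library left out, and 2 under the offset for GC content and length, alone, with the replicate block or with the transcript nearest the implied length. Prdx2 lost its call with DESeq2 (-0.107), upper quartile scaling (-0.0845), log2(FPKM + 1) (-0.0765) and log2(FPKM + 0.1) (-0.0770), and ranged from -0.127 to -0.0959 with a library left out. Prdx4 turned negative with library size only (-0.000837), log2(FPKM + 1) (-0.00158), log2(FPKM + 0.1) (-0.0016), the offset (-0.197), the offset with the replicate block (-0.196) and the nearest transcript (-0.168), and ranged from -0.00147 to 0.0698 with a library left out. Prdx5 lost its call with the offset (0.063), also with the block (0.063), and with the nearest transcript (0.0898). Txn1 lost its call with library size only (0.0677), log2(FPKM + 1) (0.0678), log2(FPKM + 0.1) (0.0678), the offset (0.0279), the offset with the block (0.0279) and the nearest transcript (0.0437), and ranged from 0.0906 to 0.115 with a library left out. With the offset, the offset with the block and the nearest transcript, Tmx3 turned to 0.437, 0.437 and 0.523, Sesn3 to 0.0613, 0.0613 and 0.186, Slc7a11 to 0.904, 0.906 and 1.03, Erp44 to 0.199, 0.199 and 0.274, Sod1 to -0.0344, -0.0341 and -0.00657, Ccs to -0.175, -0.173 and -0.143, and Krt19 to -0.175, -0.175 and -0.149. Pdia3 was at 0.00855 with the nearest transcript. Slc7a11 was also at 0.0884 with log2(FPKM + 1) and 0.104 with log2(FPKM + 0.1). The cause of these shifts was not tested.

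The libraries of the groups share only a replicate number: the correlation of deviations of the same-numbered libraries was -0.0453. With the replicate block, 7665 genes changed against 7707, 7638 of them shared, and none of 79 results moved across the threshold or changed sign. With 2 libraries a group, a gene that did not pass is not shown to be unchanged, and a group with 1 library left out is assumed to vary like the other group. The lowest count of the 10 genes in a library was 897, for Prdx4.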

Other observations

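The length that a gene's count and FPKM imply together (count divided by FPKM and library size) reflects which transcripts the authors' estimates used. For 863 of 926 genes with a single annotated transcript (93.2%), it lay within 1% of the annotated length in all libraries. The implied length of Prdx1 was 1242 and 1232 nucleotides in shCtrl and 1137 and 1123 in shUSP9X, and that of Prdx6 was 1524 and 1491 against 1376 and 1342. Prdx2 (1509 and 1493 against 1425 and 1437) and Prdx5 (1174 and 1135 against 1068 and 1095) were also shorter in both shUSP9X libraries. Txn2 was slightly shorter there (1287 and 1291 against 1280 and 1285). Txnrd1 was longer there (2958 and 2921 against 2983 and 3023). Of 10437 genes with several transcripts, 22.8% were shorter and 12.9% longer in both shUSP9X libraries than in both shCtrl libraries, so such a difference was common. Whether it reflects a change in transcript use was not tested.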
